A study of Mus musculus with 9 samples.

Results

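The genes described here are 10 genes of muscle energy supply, chosen by name: the creatine kinases Ckm, Ckb and Ckmt2, the glycogen phosphorylase Pygm, the phosphofructokinase Pfkm, the phosphoglycerate mutases Pgam2 and Pgam1, the enolases Eno3 and Eno1, and the lactate dehydrogenase Ldha. All 10 symbols matched an Ensembl identifier of the count table, which holds 47729 genes. Ckm, Ckmt2, Eno3, Pgam2, Pfkm and Pygm were taken as the 6 muscle isoforms, and Ckb, Eno1, Pgam1 and Ldha as the 4 widely expressed isoforms.

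Contracting muscle draws on phosphocreatine, from which creatine kinase regenerates ATP, and on glycogen, which phosphorylase breaks down so that glycolysis can turn it into pyruvate and lactate. Several of these steps have 1 enzyme gene that most cells use and another that skeletal muscle switches on as it matures. When myoblasts become myotubes, the muscle gene typically rises while the widely expressed gene falls or stays.

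RNA was sequenced from C2C12, an established mouse myoblast line, in 3 cell populations treated with CRISPR-Cas9. WT received a guide RNA with no target, Per1KO a knockout of Per1 and Per2KO a knockout of Per2; Per1 and Per2 are clock genes whose products repress their own transcription. Each population was sampled as undifferentiated cells (day 0, kept in DMEM with 10% FBS) and on days 3 and 5 of differentiation in DMEM with 5% horse serum. There was 1 library for each genotype and day, 9 in all, and 1 cell population per genotype, so the p-values below measure the spread among these 9 libraries and speak of these populations rather than of independently made clones. As tissue the labels give whole muscle, although the cell line is C2C12 and the growth protocol is one for cultured cells.

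Promoter sequence is shown for the creatine kinase and phosphoglycerate mutase pairs, the 2 pairs of members with the largest shift of counts toward the muscle isoform. The bases are those upstream of the RefSeq start on GRCm38.p6, read 5′ to 3′ on the gene's strand, up to 250 bases and without bases that GENCODE places in an exon. Capitals mark E-boxes (CANNTG on either strand, the sequence type bound by myogenic regulators and, as CACGTG, by the clock activators) and matches to the MEF2 consensus, which binds another family of muscle regulators. They are Ckm (chr7:19410844-19411024, plus strand), Ckb (chr12:111672339-111672588, minus strand), Pgam2 (chr11:5803797-5804046, minus strand) and Pgam1 (chr19:41911621-41911870, plus strand).
Ckm: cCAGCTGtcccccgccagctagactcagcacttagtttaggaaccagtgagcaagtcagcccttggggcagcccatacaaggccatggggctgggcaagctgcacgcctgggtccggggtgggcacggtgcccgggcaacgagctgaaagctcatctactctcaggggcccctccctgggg
Ckb: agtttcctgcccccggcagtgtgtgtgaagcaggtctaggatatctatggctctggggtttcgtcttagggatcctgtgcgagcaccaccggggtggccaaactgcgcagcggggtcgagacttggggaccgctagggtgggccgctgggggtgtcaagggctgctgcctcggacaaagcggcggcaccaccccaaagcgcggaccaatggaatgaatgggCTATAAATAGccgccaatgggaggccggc
Pgam2: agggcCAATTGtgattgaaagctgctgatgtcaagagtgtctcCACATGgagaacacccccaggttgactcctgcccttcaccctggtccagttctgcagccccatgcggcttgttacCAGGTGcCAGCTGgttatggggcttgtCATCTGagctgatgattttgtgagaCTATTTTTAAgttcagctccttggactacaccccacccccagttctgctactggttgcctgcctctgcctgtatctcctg
Pgam1: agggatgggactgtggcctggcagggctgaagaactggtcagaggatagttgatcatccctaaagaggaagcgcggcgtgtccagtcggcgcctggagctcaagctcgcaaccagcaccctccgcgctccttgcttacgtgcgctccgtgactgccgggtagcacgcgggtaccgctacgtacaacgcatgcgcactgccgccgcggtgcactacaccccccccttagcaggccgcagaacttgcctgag

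The Pgam2 window held 5 matches to CANNTG, which begin 245, 207, 132, 125 and 105 bases upstream of the start, and 1 MEF2 match. The Pgam1 window held neither. Ckm had 1 CANNTG match, 249 bases upstream, while Ckb had none and 1 MEF2 match that begins 29 bases upstream and overlaps a TATAAA box. Among 32851 RefSeq windows of the same 250 bases, 66.2% held CANNTG, 12.2% held 3 or more, 2.92% held a MEF2 match, 12.4% held TATAAA and 6.02% held CACGTG. Of the other members, CACGTG, which is a subset of CANNTG, occurred 2 times at 1 of the Ldha starts and once at 1 of the Pfkm starts. A match describes letters in these windows only. Muscle enhancers that lie farther away were not examined.

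The series has features that touch all of these genes. The 3 WT libraries held 5020385 to 6773320 counts each and the 6 libraries of the knockouts 41997763 to 48051824, and a lane suffix appears only in WT titles, so depth, lane and WT against knockout cannot be told apart. The targeted genes were still counted. Per1 was at 20.9 to 32.4 CPM in Per1KO against 31.01 to 35.6 in WT, and at 16.45 to 32.9 in Per2KO, where it was not targeted. Per2 was at 3.50 to 9.13 CPM in Per2KO against 9.75 to 20.5 in WT, and at 6.59 to 10.6 in Per1KO. A count over a whole gene does not show a small edit. CPM, the unit of the levels below, is edgeR's depth-scaled count, after TMM scaling, which sets library sizes by the bulk of genes. All 8 skeletal muscle markers examined, among them Des, Myod1, Myog and Myh3, were detected, with summed levels of 1321 to 3138 CPM on day 0, 7231 to 16290 CPM on day 3 and 9950 to 17900 CPM on day 5. Of the lists for other cell types, that of adipocytes summed to at most 0.0591 CPM, with Adipoq, Cidec and Lep at 0. The endothelial list summed to 0.669 to 3.64 CPM, with Emcn at 0 and only Tek reaching 1 CPM. The macrophage list summed to 0.817 to 2.86 CPM, with Adgre1 at 0 and only Cd68 reaching 1 CPM. The neuron list reached 9.46 to 111.9 CPM through Gap43, with Snap25 at 0. The smooth muscle list was not near 0, at 80.6 to 199.2 CPM, and Smtn, Cnn1, Mylk and Lmod1 reached 1 CPM.

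Levels were also compared as CPM per kilobase of a single coding transcript per gene. The transcript taken was the one annotated as principal, then the best supported, then the longest. Ldha (median 440 over the 9 libraries, range 315 to 700) and Eno3 (359, range 279.8 to 788) had the highest levels and their ranges overlapped. Eno1 followed at 77.6, Ckm at 55.1, Pfkm at 51.0, Ckb at 42.5 and Pgam1 at 42.1, and then Pygm at 20.9 and Pgam2 at 18.8. Each of these neighbours in the order overlapped with the next. Ckm ranged from 0.0862 to 158.6 CPM per kilobase, the widest span on a fold scale of the 9 genes with counts in every library. Its place depends on the transcript used: over the 1235-base coding transcript in place of the 2742-base model, its median was 122. Ckmt2, the mitochondrial creatine kinase of the sarcomere, had a median of 0.

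**Figure D1:**
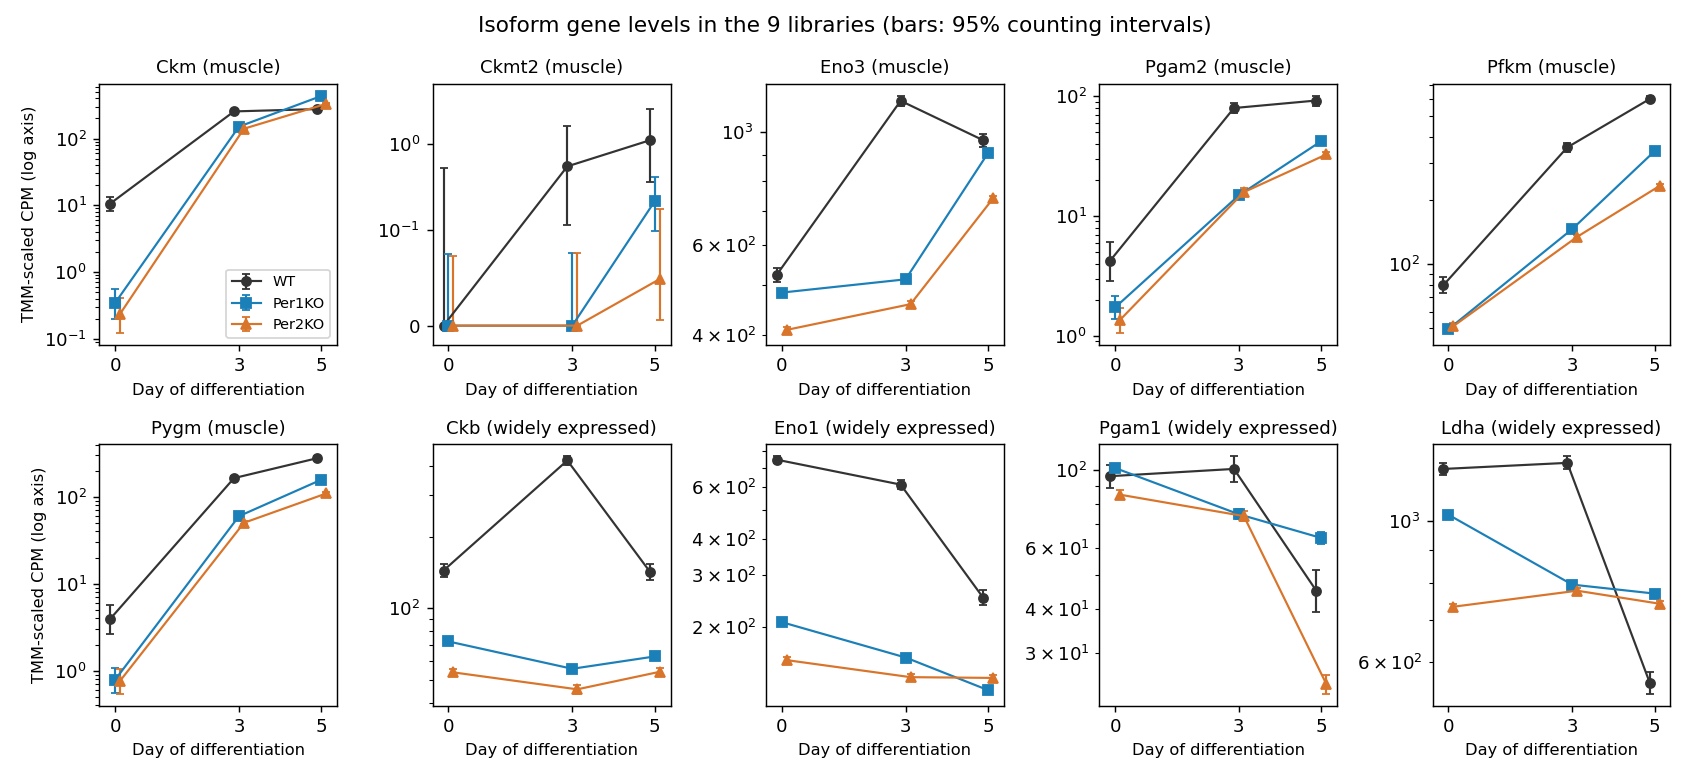
TMM-scaled CPM of the 10 genes on days 0, 3 and 5 in WT (black), Per1KO (blue) and Per2KO (orange), 1 library per point, with exact 95% counting intervals as bars and log axes; the Ckmt2 axis is linear near 0. The muscle isoforms other than Ckmt2 are higher on day 5 than on day 0 in each population, Ckm rising from 0.345 to 435 in Per1KO. Eno3 in WT is highest on day 3, at 1152. Eno1 falls, and Ckb peaks on day 3 in WT alone.

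The first comparison asked which isoforms changed as the cells differentiated, with the 3 populations standing in for replicates of a day. On day 5, 5 of the 9 tested members were higher than on day 0 and 2 were lower, beside 23.2% and 22.9% of all 13324 genes tested (46.1% in either direction). The 5 that rose were the muscle isoforms Ckm, Pygm, Pgam2, Pfkm and Eno3, with a median log2 fold change of 4.54, and the 2 that fell were Eno1 and Pgam1. The median over all genes tested was -0.01. On day 3, Ckm, Pygm, Pgam2 and Pfkm were already higher and no member was lower, beside 18.1% and 16.9% of all genes (35% in either direction). Ckmt2 did not reach the filter of 1 CPM in 3 libraries and was not tested, and Ckm and Pygm passed it through days 3 and 5 and the WT library of day 0, since both knockouts were under 1 CPM on day 0.

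Ckm encodes the creatine kinase of the contractile apparatus. It was at 10.6, 254.9 and 276 CPM on days 0, 3 and 5 in WT, at 0.345, 151 and 435 CPM in Per1KO, and at 0.236, 140 and 332 CPM in Per2KO. All 3 day 0 libraries lay below all 6 later ones. The fitted log2 fold change was 6.81 ± 1.15 (SE) on day 3 (adjusted p = 0.00393, edgeR quasi-likelihood test with Benjamini-Hochberg adjustment, as for every adjusted p below unless named otherwise) and 7.98 ± 1.21 on day 5 (adjusted p = 0.00152). The rise was unequal between populations, and in the 2 knockouts alone the day 5 value was 10.35 ± 0.16 (adjusted p = 1.41e-06). Without Per1KO the calls were lost (adjusted p = 0.109 on day 3 and 0.0609 on day 5), as was that of day 3 without Per2KO (0.0548) or with no filter on low counts (0.0515).

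Ckb, the brain-type creatine kinase found in many cells, took another course. The WT libraries held 144.5 CPM on day 0, 422 CPM on day 3 and 143 CPM on day 5. The knockouts held 72.4, 55.5 and 62.6 CPM (Per1KO) and 53.6, 45.5 and 53.9 CPM (Per2KO) on the same days. The WT library of day 3 thus stood apart, and the others of each population differed little. Ckb passed the test on neither day (log2 fold change 0.37 ± 0.39 on day 3, adjusted p = 0.492, and -0.08 ± 0.38 on day 5, adjusted p = 0.880). Without WT its day 3 value turned to -0.32 ± 0.09 (adjusted p = 0.0221). Ckmt2 had counts of 0, 3 and 5 in WT, 0, 0 and 9 in Per1KO and 0, 0 and 2 in Per2KO on days 0, 3 and 5. Its highest level was 1.10 CPM in WT on day 5, and a count of 0 allows up to 3 counts, or 0.424 to 0.660 CPM in WT and 0.0591 to 0.0731 CPM in the knockouts. The partner gene Ckmt1 had no count in any library. Nearly all creatine kinase counts thus belonged to Ckm and Ckb.

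Pygm, muscle glycogen phosphorylase, releases glucose 1-phosphate from glycogen and is the gene mutated in McArdle disease. Its levels were 3.95, 164 and 277.5 CPM in WT, 0.791, 60.02 and 158 CPM in Per1KO, and 0.768, 50.3 and 109.7 CPM in Per2KO on days 0, 3 and 5. The counting intervals of the 3 days did not overlap within a population, and each day 0 library lay below every later library. The rise was 5.92 ± 0.27 on day 3 (adjusted p = 3.59e-05) and 7.03 ± 0.28 on day 5 (adjusted p = 7.50e-06) on the log2 scale, and it was the only member besides Pfkm that was also higher on day 5 than on day 3 (1.11 ± 0.21, adjusted p = 0.0444). Pfkm, the muscle subunit of phosphofructokinase at the committed step of glycolysis, was at 79.9, 356 and 601.5 CPM in WT, 49.5, 147 and 342 CPM in Per1KO, and 51.2, 135 and 234 CPM in Per2KO. It rose by 1.70 ± 0.18 on day 3 (adjusted p = 0.000484) and by 2.62 ± 0.19 on day 5 (adjusted p = 3.63e-05), and between days 3 and 5 by 0.93 ± 0.18 (adjusted p = 0.0482). Between days 3 and 5, 1.79% of all genes tested were called in either direction, 0.698% as higher and 1.09% as lower. Both calls between those days were lost without Per1KO (adjusted p = 0.659 for Pfkm and 0.443 for Pygm) or without Per2KO (0.239 and 0.372). Those fits called 0 of 13034 and 0 of 13021 genes, so the loss does not single out these members. Without a genotype term both calls were also lost (0.712 and 0.812), with 39 of 13324 genes called. Pfkm alone lost its call with TMM factors from coding genes with little sequence in common with others (0.0549), and Pygm alone with limma-voom (0.116). In the knockouts alone 5 members rose, Ckm, Pygm, Pgam2, Pfkm and Eno3, beside 717 of 12905 genes called higher. Pfkm overlaps Senp1 on the other strand, which had up to 3894 counts; whether the authors' counting used strand is not given in the sources used here.

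Pgam2 and Pgam1 encode the muscle and the general phosphoglycerate mutase, which turns 3-phosphoglycerate into 2-phosphoglycerate. Pgam2 was at 4.24, 79.5 and 91.9 CPM in WT, 1.72, 14.9 and 42.2 CPM in Per1KO, and 1.36, 15.8 and 32.6 CPM in Per2KO. Each population was higher on both later days, with WT close to its final level by day 3 and the knockouts still far below theirs. The log2 change was 3.62 ± 0.27 on day 3 (adjusted p = 0.000123) and 4.54 ± 0.27 on day 5 (adjusted p = 1.90e-05). Pgam1 was at 96.2, 101 and 45.1 CPM in WT, 101.5, 74.8 and 63.9 CPM in Per1KO, and 85.1, 73.9 and 24.4 CPM in Per2KO. All 3 day 5 libraries lay below the other 6, with a change of -1.15 ± 0.25 (adjusted p = 0.00715), which was lost without Per2KO (-0.85, adjusted p = 0.0506). The printed windows of Pgam2 and Pgam1 hold 5 and 0 E-boxes, and no binding at them was measured.

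Eno3 and Eno1 encode the muscle (beta) and general (alpha) enolase, which makes phosphoenolpyruvate. Eno3 was already high in undifferentiated cells: it was at 525, 1152 and 964 CPM in WT, 484, 514 and 910 CPM in Per1KO, and 409, 459 and 741 CPM in Per2KO. The day 0 and day 3 values of the knockouts lay close together, whereas WT had reached its highest level by day 3. Its rise of 0.88 ± 0.23 on day 5 (1.84-fold, adjusted p = 0.0149) was the smallest of the 5 muscle isoforms tested, and was lost without Per1KO (adjusted p = 0.0938), without Per2KO (0.0869) or without a genotype term (0.0745). Eno1 was at 745, 612 and 252 CPM in WT, 208, 157 and 122 CPM in Per1KO, and 154, 135 and 134 CPM in Per2KO, highest on day 0 in each. The day 5 change was -0.81 ± 0.25 (adjusted p = 0.0305), and it was lost without Per1KO (adjusted p = 0.171), with only the libraries of the days compared (0.0691) or without a genotype term (0.296).

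Ldha, the subunit of lactate dehydrogenase that favours lactate, was at 1209, 1236 and 556 CPM in WT, 1024, 795 and 769 CPM in Per1KO, and 733, 777 and 741 CPM in Per2KO. The WT library of day 5 was the lowest of the 9, and the Per2KO libraries hardly differed among themselves. It passed the test on neither day (-0.08 ± 0.24 on day 3, adjusted p = 0.818, and -0.48 ± 0.24 on day 5, adjusted p = 0.135). In bulk RNA, a change in the share of cells that have become myotubes and a change in the RNA of each cell cannot be told apart. On day 5, 8 of 8 skeletal muscle markers were higher and 5 of 5 proliferation genes lower, beside 23.2% and 22.9% of all genes tested. The part of these markers in the isoform changes was not tested.

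**Figure D2:**
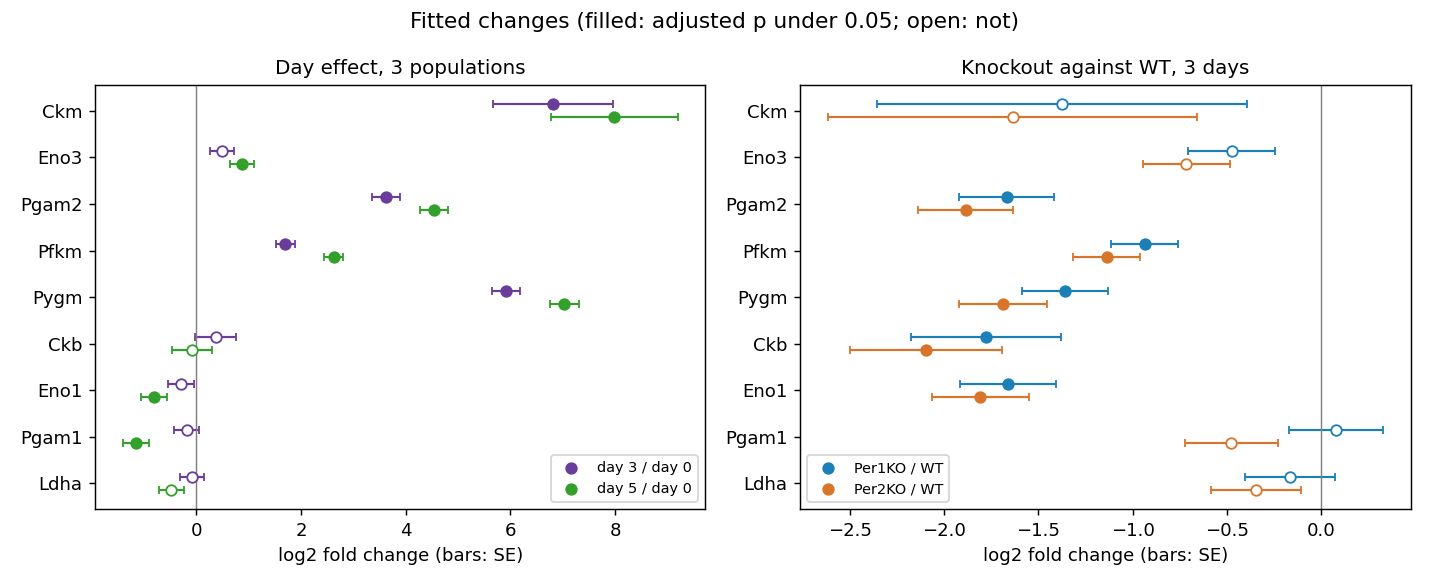
Fitted log2 fold changes with their SE for the 9 tested members, by day (left; day 3 and day 5 against day 0) and by genotype (right; Per1KO and Per2KO against WT); filled points passed an adjusted p of 0.05. Ckm, Pygm and Pgam2 lie between 3.62 and 7.98 on the left, and 5 members in each knockout are filled and below 0 on the right.

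Counts of each muscle isoform were then set against those of its widely expressed partners within the same library, a measure that does not depend on library scaling. The share of Ckm in Ckm and Ckb counts was 6.83%, 37.7% and 65.9% on days 0, 3 and 5 in WT, 0.474%, 73.1% and 87.4% in Per1KO, and 0.439%, 75.5% and 86.0% in Per2KO. The WT share was above both knockouts on day 0 and below both on days 3 and 5. The exact Clopper-Pearson 95% intervals did not overlap (5.41% to 8.49% in WT on day 0, against at most 0.765% in the knockouts). They cover the counting error of single libraries only. On day 3 Ckm itself was higher in WT, at 254.9 CPM against 151 and 140 CPM in Per1KO and Per2KO. Ckb was at 422 CPM in that WT library, against 55.5 and 45.5 CPM. Pgam2 made up 4.22%, 44.1% and 67.1% of the Pgam2 and Pgam1 counts in WT, 1.67%, 16.6% and 39.8% in Per1KO, and 1.57%, 17.6% and 57.2% in Per2KO. For Pfkm among Pfkm, Pfkl and Pfkp the share was near 10 percent on day 0 in each population (9.91% to 10.8%), and on day 5 it was 70.7%, 53.9% and 42.7% in WT, Per1KO and Per2KO. Pygm went from 4.28%, 0.926% and 1.03% of the phosphorylase counts (with Pygb and Pygl) on day 0 to 85.1%, 72.9% and 64.8% on day 5. Every one of these muscle shares was higher on day 5 than on day 3 and higher on day 3 than on day 0, in all 3 populations.

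The enolase and lactate dehydrogenase pairs had another starting point. Eno3 already made up 41.3% of Eno3 and Eno1 counts on day 0 in WT and 70.0% and 72.6% in Per1KO and Per2KO, and reached 79.3%, 88.2% and 84.7% on day 5. The gap between WT and the knockouts was smaller when the near-identical copies of Eno1, described below, were added to it. The Eno3 share was then 38.7%, 56.6% and 61.5% on day 0 in WT, Per1KO and Per2KO. On day 5 it was 77.45%, 81.9% and 77.7%. Ldha stayed between 97.4% and 99.6% of Ldha and Ldhb counts throughout, although Ldhb, the heart-type subunit, itself rose. The log2 ratio of muscle to widely expressed counts grew from day 0 to day 5 by 8.38 ± 3.18 for Ckm:Ckb, 7.47 ± 0.55 for Pygm:Pygb+Pygl, 5.69 ± 0.57 for Pgam2:Pgam1, 3.47 ± 0.88 for Pfkm:Pfkl+Pfkp and 1.73 ± 0.69 for Eno3:Eno1 (mean ± SD, n = 3 populations). The Ckm:Ckb value had the largest spread, 4.71 in WT against 10.29 and 10.13 in the knockouts. The log2 ratio of Ldha to Ldhb changed by -1.88 ± 0.68. With 3 populations an exact sign test cannot reach the 0.05 threshold, so these ratios are given as a description.

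**Figure D3:**
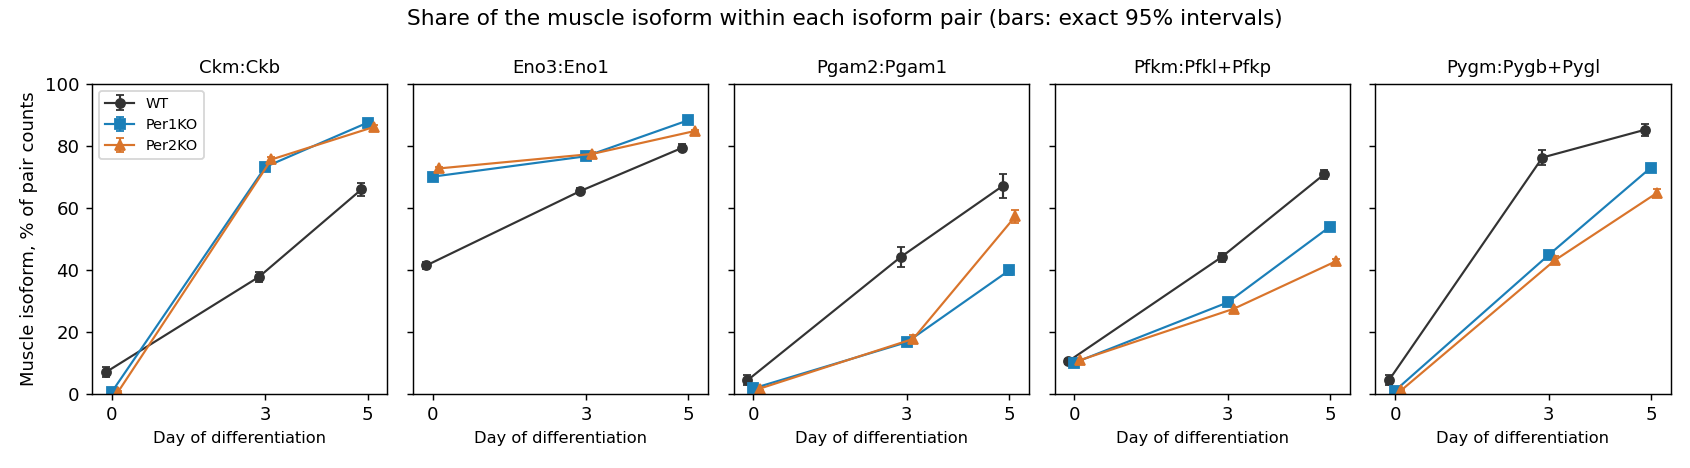
Percent of the counts of each isoform group that belong to the muscle isoform, on days 0, 3 and 5, for 1 library per point (WT black, Per1KO blue, Per2KO orange) with exact 95% intervals. The Ckm share in WT is 37.7% on day 3, below 73.1% and 75.5% in the knockouts, with Ckb at 422 CPM in that WT library. The WT shares of Pgam2, Pfkm and Pygm lie above both knockouts on days 3 and 5.

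Counts of Eno1, Pgam1, Ldha and Ckb can be divided among near-identical genes, since 73.0%, 42.1%, 29.5% and 15.6% of the 31-base words of their longest transcripts also occur in another gene's; the rule the authors' counting used for reads that match several genes is not given in the sources used here. The split differed between WT and the knockouts. Eno1b, a near-identical enolase gene, took 10.3% to 10.6% of Eno1 and Eno1b counts in WT, against 36.6% to 43.6% in Per1KO and Per2KO. Pgam1-ps2, a processed pseudogene of Pgam1, took 0.966% to 2.47% of the pair's counts in WT and 6.91% to 15.7% in 5 knockout libraries, but 37.6% in Per2KO on day 5 (603 of 1604 counts). Eno1 and Eno1b together were at 833, 684 and 281 CPM in WT, 368, 251 and 199 CPM in Per1KO and 254, 226 and 211 CPM in Per2KO. On each day the summed level was still lower in the knockouts, by less than for Eno1 alone. Eno1b by itself was higher in Per1KO than in WT (0.85 ± 0.24 on the log2 scale, adjusted p = 0.0410) and did not pass in Per2KO (0.63 ± 0.24, adjusted p = 0.104). Pgam1 and Pgam1-ps2 together were at 39.1 CPM in Per2KO on day 5, against 24.4 CPM for Pgam1 alone, and the Pgam2 share in that library was 45.5% with copies summed in place of 57.2%.

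**Figure D4:**
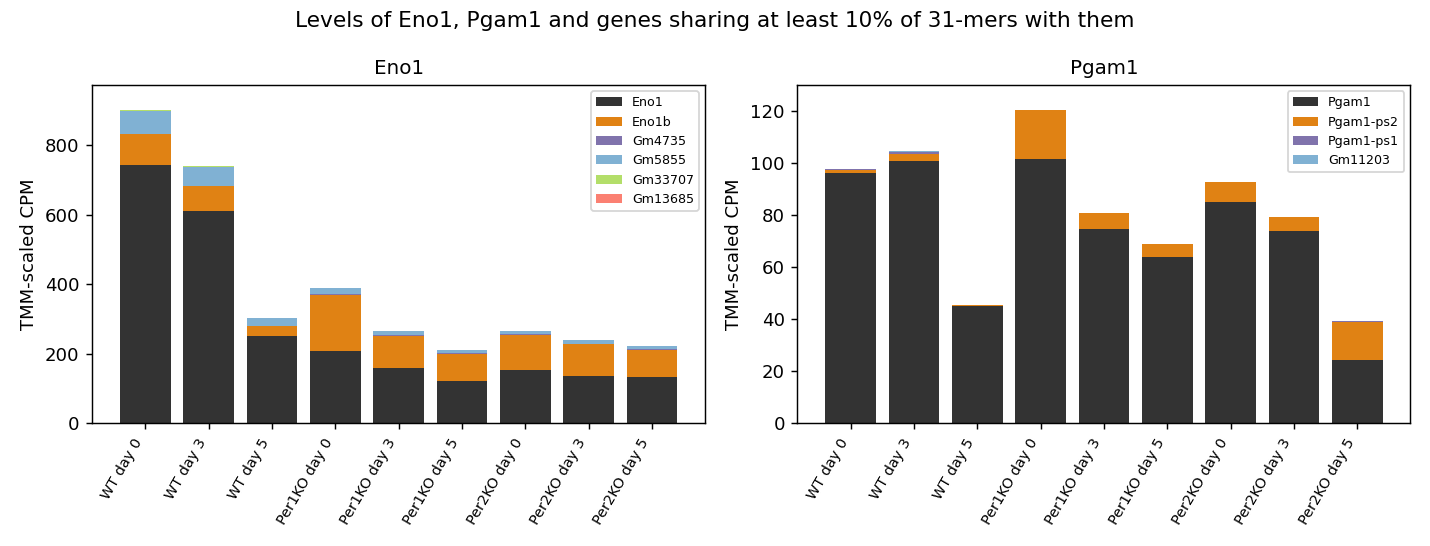
Stacked TMM-scaled CPM of Eno1 (left) and Pgam1 (right) with the genes that share at least 10% of their 31-base words, per library. The orange part, Eno1b or Pgam1-ps2, is a larger share of each knockout bar than of any WT bar, reaching 43.6% of Eno1 and Eno1b in Per1KO on day 0.

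The second comparison asked which isoforms differed between each knockout and WT over the 3 days, which stand in for replicates of a genotype. In Per1KO, 5 of 9 tested members were lower and 0 higher, beside 10.1% and 9.26% of all genes tested (19.3% in either direction). In Per2KO, 5 were lower and 0 higher, beside 10.6% and 9.31% (19.9% in either direction). In both, these were Pgam2, Pfkm and Pygm among the muscle isoforms and Ckb and Eno1 among the widely expressed ones. Both comparisons use the same 3 WT libraries, and WT against knockout cannot be told apart from depth and lane.

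Ckb was below WT on every day, with no overlap: its 6 knockout libraries lay between 45.5 and 72.4 CPM and its WT libraries between 143 and 422 CPM. The log2 difference was -1.78 ± 0.40 in Per1KO (adjusted p = 0.0203) and -2.10 ± 0.40 in Per2KO (adjusted p = 0.0107). It was larger on day 3 (-2.92 and -3.21 between the single libraries, log2 CPM of each library taken after adding a prior count of 2) than on day 0 (-0.995 and -1.43) or day 5 (-1.19 and -1.41). Without day 5 the calls were lost (adjusted p = 0.0866 and 0.0545), and likewise with no filter on low counts (0.102 and 0.0647) and, in Per1KO, with only the libraries compared (0.0589). Eno1 was lower by 1.66 ± 0.25 and 1.81 ± 0.26 on the log2 scale (adjusted p = 0.00369 in Per1KO and 0.00260 in Per2KO). The knockout and WT libraries did not overlap for Eno1 alone (122 to 208 against 252 to 745 CPM). With its near-identical copies summed the differences were -1.06 ± 0.24 (adjusted p = 0.0211) and -1.24 ± 0.25 (adjusted p = 0.0113), and day 0 of Per1KO, at 368 CPM, then lay above WT of day 5, at 281 CPM.

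Pgam2 was lower in each knockout than in WT on each day, with log2 differences of -1.67 ± 0.25 in Per1KO (adjusted p = 0.00330) and -1.89 ± 0.25 in Per2KO (adjusted p = 0.00187). Its day 3 levels stood farthest apart, at 14.9 and 15.8 CPM against 79.5 CPM. Pfkm differed by -0.94 ± 0.18 (adjusted p = 0.00938) and -1.14 ± 0.18 (adjusted p = 0.00403), and Pygm by -1.36 ± 0.23 (adjusted p = 0.00573) and -1.69 ± 0.23 (adjusted p = 0.00220). Here too every knockout library was below the WT library of its day. The calls of Eno1, Pfkm and Pygm were lost without day 3 (adjusted p of 0.0691 to 0.108), and those of Pfkm also without day 5 (0.0733 in Per1KO and 0.0649 in Per2KO). Of the skeletal muscle marker list 2 of 8, Myog and Actc1, were lower in Per1KO and 3 of 8, with Tnni1, in Per2KO. That stood beside 10.1% and 10.6% of all genes tested. Of the proliferation genes 2 of 5 were higher in Per1KO and 1 of 5 in Per2KO, beside 9.26% and 9.31%. The remaining genes of both lists did not pass. The part of these markers in the isoform differences was not tested.

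Ckm crossed over instead. On day 0 it had 17 counts in Per1KO and 12 in Per2KO, or 0.345 CPM (95% counting interval 0.201 to 0.552) and 0.236 CPM (0.122 to 0.413), against 75 counts and 10.6 CPM (8.33 to 13.3) in WT. On day 3 the knockouts were at 151 and 140 CPM against 254.9 CPM, and on day 5 at 435 and 332 CPM against 276 CPM. So both knockouts were below WT on days 0 and 3 and above it on day 5, and over the 3 days Ckm passed in neither (-1.37 ± 0.98, adjusted p = 0.362, and -1.64 ± 0.98, adjusted p = 0.276). Ldha showed the same order of libraries by day, lower in both knockouts on days 0 and 3 and higher on day 5, and passed in neither (-0.17 ± 0.24, adjusted p = 0.659, and -0.35 ± 0.24, adjusted p = 0.337). Eno3 was below WT on each day, mainly on day 3, at -0.48 ± 0.23 (adjusted p = 0.184) and -0.72 ± 0.23 (adjusted p = 0.0647; DESeq2 gave 0.0190). Pgam1 differed by 0.08 ± 0.25 in Per1KO (adjusted p = 0.849) and -0.48 ± 0.25 in Per2KO (adjusted p = 0.213).

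Per1KO and Per2KO were also compared with each other. No member was called, 0% of all genes being called, and 0 members had an unadjusted p under 0.05 with edgeR, and 0 were called by DESeq2 or limma-voom. The fitted differences, Per1KO minus Per2KO, ranged from 0.15 ± 0.25 for Eno1 to 0.55 ± 0.25 for Pgam1 on the log2 scale. All 9 were above 0. At these standard errors, differences of that size were not detectable.

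The third comparison asked whether the response to differentiation, days 3 and 5 together against day 0, differed between genotypes. Within WT no member was called by edgeR, beside 2.23% of all genes (1.27% higher and 0.961% lower). An unadjusted p under 0.05 was found for 4 members (Ckm, Pgam2, Pfkm and Pygm, with adjusted p between 0.0503 and 0.0949). The same held for 18 of the 36 tested genes of the wider pathway list described below. The share of all genes at that threshold was not computed, so this count is no result about the members. DESeq2 called 4 members, among 1763 of 13324 genes in all, and limma-voom called 0, among 97. Within Per1KO, Ckm (log2 fold change 9.72 ± 1.21, adjusted p = 0.0109), Pygm (7.10 ± 1.05, 0.0144) and Pgam2 (4.05 ± 0.84, 0.0276) rose, beside 18.3% of all genes called, 10.3% as higher and 7.94% as lower. Within Per2KO the values were 9.94 ± 1.24 (0.00935), 6.70 ± 1.03 (0.0144) and 4.15 ± 0.85 (0.0263), beside 17.6%, 9.88% and 7.7%. With no filter on low counts the calls of Pygm (adjusted p = 0.0707 and 0.0805) and Pgam2 (0.142 and 0.144) were lost in Per1KO and Per2KO. The Ckm rise in WT was 4.65 ± 0.93.

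Tested directly, the difference in response was not called for any member in either knockout, with 0% of all genes called by edgeR. Ckm had the largest difference, 5.07 ± 1.27 in Per1KO (unadjusted p = 0.00692, adjusted p = 0.304) and 5.29 ± 1.32 in Per2KO (unadjusted p = 0.00672, adjusted p = 0.199), and it was the 1 member with an unadjusted p under 0.05 in each. DESeq2 called it in both (adjusted p = 0.000127 and 4.08e-05), among 248 and 476 genes that it called in all, and limma-voom called 0 members. For the other 8 tested members the differences lay between -1.26 and 1.30, all within 2 standard errors of 0. The low day 0 level of Ckm in the knockouts rests on 1 library each.

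The wider pathway was read from a list of 41 other genes of glucose uptake, glycogen, glycolysis, lactate, creatine and adenylate metabolism, of which 36 were tested and 5 (Ampd1, Ckmt1, Fbp2, Phkg1 and Pygl) were not. On day 5, 10 were higher and 10 lower than on day 0, with a median log2 fold change of 0.01. That is 27.8% in each direction, near the 23.2% and 22.9% of all genes tested, so the list did not stand out by its count of calls. The genes that rose most among those whose mean reached 10 CPM were Gyg, the glycogenin that primes glycogen synthesis (1.64 ± 0.16, adjusted p = 0.000163), Ldhb (1.36 ± 0.23, adjusted p = 0.00232) and Gys1, the muscle glycogen synthase (1.36 ± 0.24, adjusted p = 0.00277). Those that fell most were Slc2a1, the glucose carrier of most dividing cells (-1.70 ± 0.22, adjusted p = 0.000573), Pfkfb4, a regulator of phosphofructokinase (-1.10 ± 0.19, adjusted p = 0.00233), and Hk1, the general hexokinase (-0.92 ± 0.14, adjusted p = 0.00142). Gyg was at 48.2 CPM on day 0 and 195.9 on day 5 in WT, at 55.8 and 181 in Per1KO, and at 62.9 and 147.7 in Per2KO. Slc2a1 went from 253 to 100.3 CPM in WT, from 250 to 67.9 in Per1KO and from 238 to 67.2 in Per2KO. In both genes the 3 populations moved together and the days did not overlap.

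Of the 8 partner genes set beside the members, 6 were tested. On day 5 Eno1b, Pfkl, Pfkp and Pygb were lower and Eno2 and Ldhb higher than on day 0. That is 66.7% lower and 33.3% higher, beside 22.9% and 23.2% of all genes tested. All partners but Eno1b also belong to the pathway list, so their calls are counted in both lists. Pfkl, Pfkp and Pygb, the widely expressed counterparts of Pfkm and Pygm, fell by 0.91 ± 0.26, 0.72 ± 0.13 and 0.57 ± 0.15 on the log2 scale (adjusted p = 0.0243, 0.00366 and 0.0150). Eno2, the enolase known from neurons, rose by 1.21 ± 0.16 (adjusted p = 0.000671), to 36.2 to 49.0 CPM on day 5. Gapdh, among the most abundant transcripts of most cells, was listed at only 6.16 to 13.1 CPM, and 31.8% of its transcript words are shared with other genes; its level was not interpreted.

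In the knockouts, 5 of the 36 tested pathway genes were lower in Per1KO and 6 in Per2KO, and none was higher, with medians of -0.19 and -0.17. These shares, 13.9% and 16.7%, lay near the 10.1% and 10.6% of all genes called lower, and are no result about the list. The named ones were Slc16a3, a lactate exporter of glycolytic cells (-2.20 ± 0.28, adjusted p = 0.00158, and -2.33 ± 0.28, adjusted p = 0.00127), the glycolytic kinase Pgk1 (-0.72 ± 0.13, adjusted p = 0.00854, and -0.74 ± 0.13, adjusted p = 0.00723) and Phkb, a subunit of the kinase that activates glycogen phosphorylase (-0.68 ± 0.18, adjusted p = 0.0341, and -0.63 ± 0.18, adjusted p = 0.0430). Slc16a3 was at 69.9, 70.1 and 29.2 CPM in WT on days 0, 3 and 5, and at 9.18 to 18.6 CPM in the 6 knockout libraries. No knockout library reached the WT range. Pgk1 shares 68.3% of its transcript words with other genes, so its counts carry the same uncertainty as those of Eno1.

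**Figure D5:**
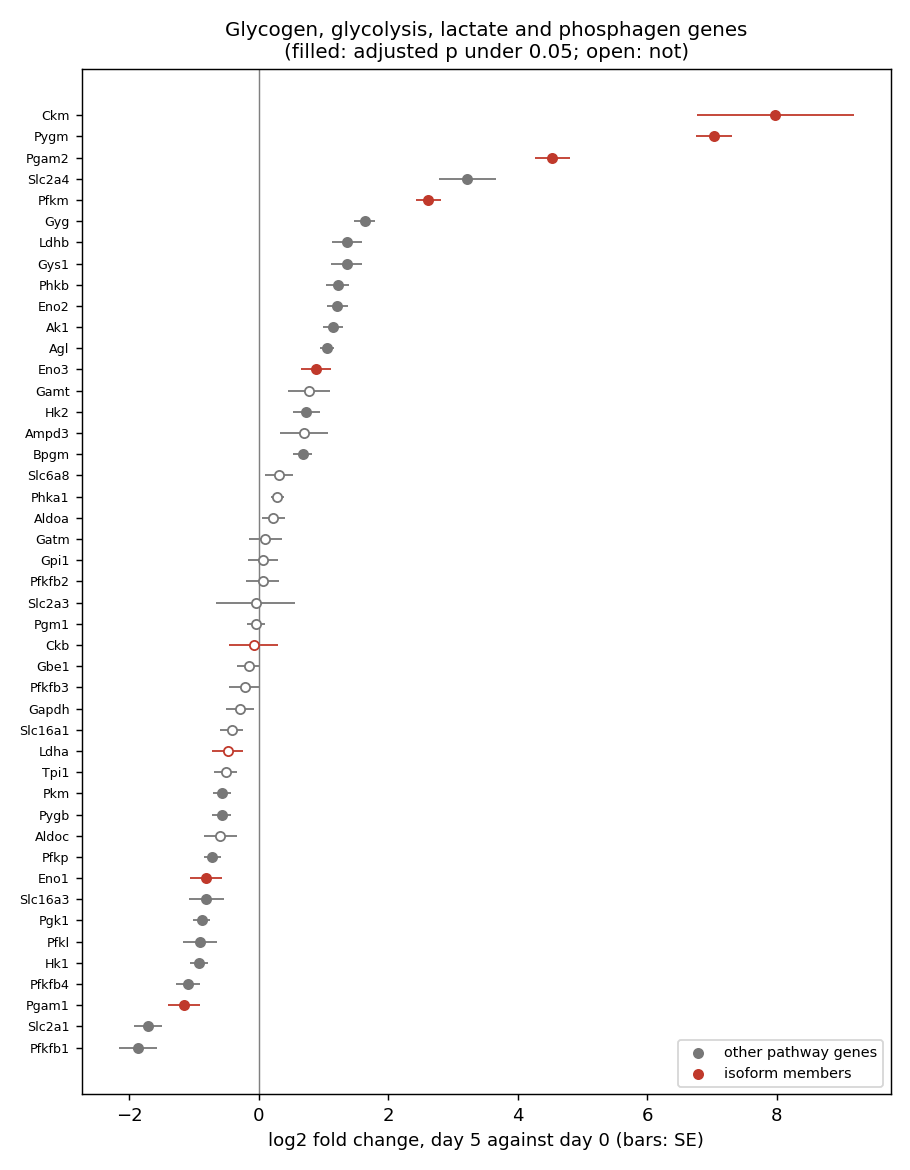
Log2 fold change of day 5 against day 0 with its SE for the 9 tested members (red) and the 36 tested genes of the pathway list (grey); filled points passed an adjusted p of 0.05. Ckm at 7.98 and Pygm at 7.03 lead, and Slc2a1 at -1.70 and Pfkfb1 lie at the other end.

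The genes whose log2 CPM followed Ckm most closely over the 9 libraries, among the 9586 tested genes whose mean reached 10 CPM, were Cacna1s, Myl4, Gprc5c, Mylpf and Srl, with Pearson correlations of 0.996 to 0.997. Most of them belong to the contractile or excitation machinery of muscle: Cacna1s is the calcium channel of the T-tubule, Myl4 and Mylpf are myosin light chains and Srl is a protein of the sarcoplasmic reticulum. Like Ckm, Cacna1s was at 9.46 CPM in WT on day 0 against 0.304 in Per1KO and 0.158 in Per2KO. The genes closest to Ckb were Lcmt1, Bsg, Drap1, Cdc16 and Gtf2h3, at 0.971 to 0.987. Bsg, the chaperone of lactate transporters, was at 681, 897 and 722 CPM in WT on days 0, 3 and 5 and at 507.5 to 544 CPM in the 6 knockout libraries. The 9 libraries share 3 populations and 3 days, and these correlations describe them only.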

How the data were processed

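Polyadenylated RNA of 9 C2C12 libraries was sequenced as single reads on a HiSeq 2500 after TruSeq library preparation, per the labels. The authors deposited raw read counts per Ensembl gene, whole numbers in 9 columns that each match 1 sample title. The submitters' processing notes name CASAVA 1.8, HISAT2 2.1.0 and build mm10; the counting program, annotation, use of strand and treatment of reads that match several genes are not given in the sources used here. No row names anything but a gene. Symbols, positions, transcript lengths and transcript sequences came from GENCODE M21 on GRCm38, the same build, and promoters from RefSeq on GRCm38.p6, where all 10 members matched. No protein sequence was used.

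From the counts, the 13324 genes that reached 1 CPM in 3 or more libraries were fitted with edgeR 4.0.16 (limma 3.58.1, R 4.3.3): TMM factors, robust quasi-likelihood dispersions, Benjamini-Hochberg adjustment over all genes tested and calls at an adjusted p under 0.05. Genotype and day were additive (4 residual degrees of freedom); the response was fitted as genotype by phase (3 residual degrees of freedom). The script was tested on simulated data. Totals were 5020385 to 6773320 counts in WT and 41997763 to 48051824 in the knockouts; intervals are exact Clopper-Pearson 95% intervals and, like the floor of 3 counts for a 0, cover counting error only. Alternatives were RLE factors, TMM from coding genes with few shared words, DESeq2 1.42.0, limma-voom, other filters, thinned knockout libraries, summed copies, omitted libraries, other fits and another prior count; summing genes that share at least 10% of their 31-base words was chosen after seeing the data. Named genes are the 10 members, 8 partners, from the pathway list up to 3 called genes with the largest rise and 3 with the largest fall in day 5 against day 0 and in each knockout (mean of at least 10 CPM), and the 5 genes most like Ckm and Ckb. Pathway genes not tested, Pfkfb1 and the markers named were picked outside that rule after their values were seen. The members and lists were chosen with earlier results of these data known.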

Additional observations from a re-analysis of the deposited data

How the results depend on the processing

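Of the 11 counts of called members, those for day 3 against day 0 and for Per1KO against Per2KO stayed within 1.5 times their value under every alternative run. Between days 5 and 3 the count of 2 became 1 with TMM from coding genes sharing few words, 4 with DESeq2 and 1 with limma-voom. It became 0 without a genotype term and 0 to 5 with a population left out. Over all genes the 238 calls became 733 with DESeq2, 39 without a genotype term and 0 to 1355 with a population left out. Within WT the count of 0 became 1 with that TMM, 4 with DESeq2, 3 with thinned knockout libraries, and 0 to 3 with another population left out. Over all genes the 297 calls within WT became 1763 with DESeq2, 623 with thinned libraries and 90 to 339 with another population left out. Without a filter on low counts, the count of 3 within Per1KO and within Per2KO became 1 in each. That setting called 3856 and 3667 of 26159 genes, against 2433 and 2343 of 13324 in the main fit. For the difference in response, DESeq2 called 1 member in each knockout. Leaving out 1 population gave 4 to 7 calls for day 5 against day 0 (4 without Per1KO). Over all genes these fits called 2259 (without Per1KO) to 8341 (without WT), against 6149 in the main fit. Leaving out 1 day gave 2 to 5 for Per1KO and 2 to 5 for Per2KO against WT (2 without day 3, 3 without day 5). Over all genes these fits called 685 to 2640 for Per1KO and 753 to 2968 for Per2KO, against 2575 and 2652. A changed count is thus no result about the members alone. The Pygm:Pygb+Pygl ratio change was 6.88 with thinned libraries.

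Of the fitted changes of single members, 8 changed sign, and all but 1 of these values missed the threshold. With a population left out these were Ckb in day 3 against day 0 (-0.32 to 0.74; the lowest, without WT, passed) and in day 5 against day 3 (-0.80 to 0.21, the highest without WT) and Ldha in day 3 against day 0 (-0.15 to 0.0535, the highest without Per1KO). With a day left out they were Ldha (-0.44 to 0.0727, the highest without day 3) and Pgam1 (-0.18 to 0.30, the lowest without day 5) in Per1KO against WT. In the difference of response they were Ldha for Per1KO with that TMM (-0.0095) and Pgam2 with thinned libraries (1.502 for Per1KO, 0.48 for Per2KO). Another 36 lost and 22 gained a call in the same direction, and the cause was not tested. The additive fit already compares days within populations and genotypes within days, and the labels carry no replicate numbers for a further block. Dropping day 3 or day 5 from the response fit was not run. Ckmt2 had at most 9 counts in a library, and the lower depth of WT leaves a higher floor for it there. The day 0 values of Ckm in Per1KO and Per2KO rest on 17 and 12 counts, in 1 library each.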
